A study of Rattus norvegicus with 12 samples.

Results

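Splicing factors of the SR protein and hnRNP families, with the splice site recognition proteins and RNA helicases that work beside them, were followed in rat choroid plexus across the light and the dark phase. The members are a set of 44 genes chosen by name, and 29 of these could be paired with an Ensembl identifier, of 32883 genes quantified in all. For 24 of the 29 the identifier came from the part used here of the study's table of all transcribed genes, which is ordered by expression level, so that these entered because they are abundant. Of these 24, 11 also stand in the part used here of the study's list of genes called different between the phases. That list was not needed to identify them, but the 44 names were chosen with earlier results of these data known. The other 5 (SRSF10, SRRM2, SON, HNRNPUL1 and HNRNPUL2) had an identifier in that list alone. They were therefore chosen by the outcome, and their values are given as a description without a test. The 15 named factors without an identifier, among them SRSF1, SRSF7, SFPQ and HNRNPR, are not analysed here.

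The animals were male Sprague-Dawley rats at 9 weeks of age, kept on a light-dark cycle, anesthetized with xylazine and ketamine before the tissue was taken. The light-phase group was sampled at ZT8, which is 8 h after the lights came on, and the dark-phase group at ZT20, which is 8 h after they went off, in darkness apart from a red lamp. There were 6 rats in each group and 1 library per rat, made from whole choroid plexus of the lateral ventricles and the fourth ventricle. Since both groups were sampled at a single time, the data describe the difference between these times and not a rhythm.

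A pre-mRNA is spliced by the spliceosome, and which exons it keeps is set in large part by proteins that bind the RNA beside the splice sites. SR proteins carry an RNA-binding domain and a stretch rich in arginine and serine, and as a rule they bind exons and help the spliceosome to use them. The hnRNPs coat nascent RNA, and many of them bind introns or exons and keep splice sites from being used, so that the balance between and within both families shapes the mRNA isoforms of a cell. Many of these genes also control their own transcripts through alternative exons that lead to decay of the mRNA, which values summed over a whole gene do not show.

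All 12 libraries held a total of 1000000 TPM (transcripts per 1000000, a level per transcript length), so that levels can be compared between genes. Relative to the mean of all libraries, read depth estimated from low FPKM values ranged from 0.887 to 1.306 at ZT8 and from 0.901 to 1.09 at ZT20. Absolute numbers of reads are not known, so errors are the spread between rats. TPM was divided by a scaling factor per library (0.9396 to 1.0448), and all levels below are such scaled TPM unless a ratio is named. TTR, the most abundant choroid plexus transcript, was lowest in light-phase replicate 2, at 242835 against 282003 to 323737 TPM in the 11 other libraries. Of the 9 epithelial marker genes set for this check all were detected, and their sum lay between 253343 and 335420 TPM at ZT8 and between 293385 and 321775 TPM at ZT20. Limma called 5 of the 9, where 17.7% of all tested genes were called, with AQP1 and SLC4A5 lower and CLIC6, KL and OTX2 higher at ZT20. The markers were chosen with earlier results of these data known. The markers with an identifier for other cell types overlapped between the phases: PLVAP of endothelium (57.7 to 119 and 55.7 to 95.6 TPM), DCN of fibroblasts (70.9 to 150 and 80.6 to 157), RGS5 of mural cells (133 to 311 and 134 to 210), PTPRC of leukocytes (2.05 to 2.85 and 1.25 to 2.16) and HBB of red blood cells (1412 to 5297 and 825 to 2157). PTPRC was identified from the lists of changed genes alone, so its log2 fold change of -0.36 is a description without a test. The other 4 were not called by limma. Markers of neurons and of glia are not analysed here, and the part of other cell types in the results was not tested. The tissue was sequenced in bulk, so fewer cells of a type and less RNA per cell cannot be told apart.

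The splicing factors were expressed at moderate to high levels. HNRNPA2B1 (mean 327 TPM over the 12 libraries) and the helicase DDX5 (322 TPM) were the most abundant, followed by HNRNPK (217 TPM), and SRSF10 was the least abundant (19.1 TPM). Among the SR proteins SRSF5 led with 109 TPM. Taken as a sum, the 29 transcripts had equal medians in both phases: the sum was lowest at 2817, had a median of 2945 and was highest at 2982 TPM in the light phase, and the dark-phase values were 2769, 2945 and 3032 TPM. The sum of the 15 hnRNPs (including PTBP1, which is also known as hnRNP I) had a median of 1787 TPM at ZT8 and 1775 TPM at ZT20. For the 8 SR proteins and their relatives the medians were 467 and 460 TPM, and for the 6 recognition factors, helicases and paraspeckle proteins 680 and 722 TPM, with overlapping phases in each role. The sums include the genes chosen by the outcome: SRSF10, SRRM2 and SON among the SR proteins and relatives, and HNRNPUL1 and HNRNPUL2 among the hnRNPs. Of these, HNRNPUL1 alone had a lower median at ZT20.

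**Figure D1:**
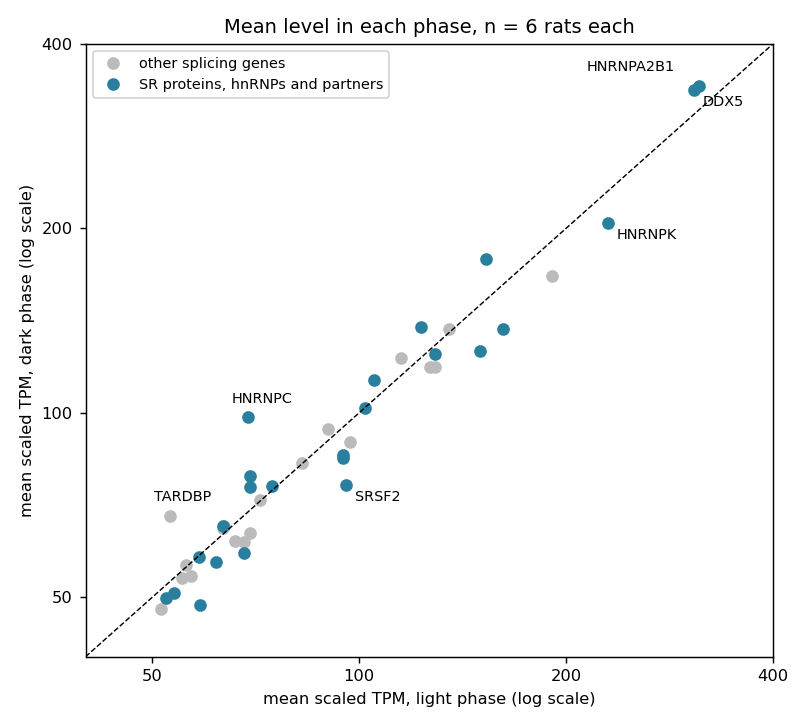
Mean scaled TPM in the light phase (x axis, log scale) against the dark phase (y axis, log scale), n = 6 rats each, for the 24 splicing factors identified through their level (blue) and 19 other splicing genes (grey). The dashed line marks equal levels: most points lie close to it, while HNRNPC and TARDBP, the latter one of the other genes, lie above it.

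Single genes differed more than their sum. Of the 24 splicing factors identified through their level, limma (FDR below 0.05 over all 12513 genes tested) called 10, with 3 up-regulated at ZT20 and 7 at ZT8. This is 41.7% of the 24, where 17.7% of all tested genes were called and 23.5% of the 1997 genes in the same part of the study's table. These 1997 genes are named below as those at that level. Their means start at 33.6 TPM and were not matched to the 24 genes, which lie between 51.1 and 327 TPM. The genes were named with earlier results of these data known, so the shares given here are a description. In the direction of the dark phase the share was 12.5% (9.30% of all tested genes and 8.96% of the genes at that level), and in the direction of the light phase 29.2% (8.37% and 14.6%). The called hnRNPs were HNRNPC, HNRNPH2 and HNRNPA3 (higher in the dark phase) and HNRNPA1, HNRNPL, HNRNPK, PTBP1 and HNRNPD (lower), which is 8 of 13. Of the 5 SR proteins and relatives SRSF2 and TRA2B were called, both lower in the dark phase. Limma called 0 of the 6 recognition factors, helicases and paraspeckle proteins, of which 2 (SF3B1 and DDX5) had an unadjusted p below 0.05. Over all 24 genes 15 had such a p, beside 30.8% of all tested genes and 38.5% of those at that level. The changes were small, with a median size of 0.14 on the log2 scale over the 24 genes, against 0.12 over all tested genes and 0.093 over the genes at that level. With signs kept, the median was -0.027, beside -0.01 over all tested genes and -0.037 at that level. In 8 of the 24 genes (33.3%) every library of one phase lay above every library of the other, which was so in 8.86% of all tested genes and in 12.4% of those at that level. Of the 8, 2 were higher in the dark phase (4.93% of all tested genes, 4.86% at that level) and 6 were lower (3.93% and 7.56%). With TPM as deposited, without scaling, this number was 6, while the shares over other genes given here are of scaled TPM alone.

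Most of these calls were lost when 1 property of the libraries was taken into account. Total FPKM divided by total TPM, which depends on the average length of the transcripts sequenced, was 0.953 to 0.987 at ZT8 and 0.934 to 0.960 at ZT20, so that it moved with the phase. With this quotient as a covariate limma called 342 genes in all in place of 2211, and among the 24 splicing factors only HNRNPC (FDR = 0.00346) and SRSF2 (FDR = 0.0145) kept a call. The log2 fold changes of the other 8 kept their sign. Those of TRA2B (-0.26, from -0.27 without the covariate), PTBP1 (-0.15, from -0.16), HNRNPK (-0.17 in both) and HNRNPH2 (0.21, from 0.18) stayed about as large. Those of HNRNPA1 (-0.19, from -0.26), HNRNPL (-0.17, from -0.24), HNRNPA3 (0.14, from 0.21) and HNRNPD (-0.11, from -0.20) were smaller. The part of this property in the differences was not tested.

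**Figure D2:**
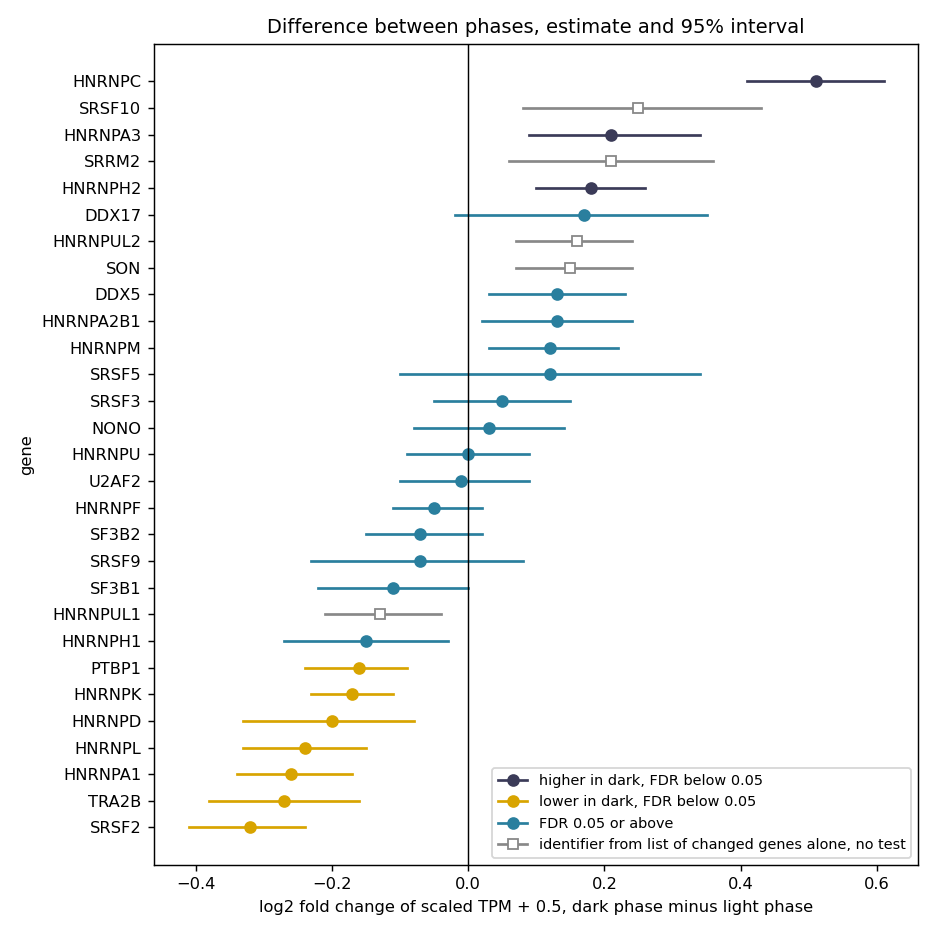
Log2 fold change between the phases for each of the 29 splicing factors (x axis, dark phase minus light phase, on the scale of log2 scaled TPM + 0.5), with points for the estimate and lines for the 95% interval. Circles are the 24 genes tested, from SRSF2 at -0.32 to HNRNPC at 0.51, and open squares are the 5 genes whose identifier came from the study's list of changed genes alone, shown without a test.

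Among the SR proteins and relatives the largest difference was that of SRSF2, a classical SR protein that binds exonic enhancers. In the light phase SRSF2 was lowest at 91.3, had a median of 95.7 and was highest at 102 TPM, and in the dark phase the values were 71.8, 77.4 and 80.8 TPM. Every light-phase rat was thus above every dark-phase rat, and the level fell by 20.2% (log2 fold change -0.32 ± 0.04 SE, FDR = 0.000158 by limma). TRA2B, an SR-like protein that binds purine-rich exonic enhancers, had 54.4, 58.7 and 62.8 TPM (lowest, median and highest) at ZT8 and 45.4, 47.7 and 53.4 TPM at ZT20. Its phases came close to each other without overlapping, and the log2 fold change was -0.27 ± 0.05 (SE, FDR = 0.00395 by limma).

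The other SR proteins showed no such separation. SRSF3, the smallest SR protein, had 58.6, 62.3 and 69.4 TPM at ZT8 and 63.6, 65.2 and 68.3 TPM at ZT20, and all 6 dark-phase libraries lay within the light-phase range (log2 fold change 0.05, 95% interval -0.05 to 0.15). SRSF5, the most abundant of them, spread widely in the light phase, between 76.3 and 128 TPM with a median of 107 TPM (coefficient of variation 17.0%), and lay between 102 and 125 TPM with a median of 114 TPM at ZT20 (7.61%). Its interval, -0.10 to 0.34 on the log2 scale, leaves room for a rise of the same size as the fall of SRSF2. SRSF9 had 43.4, 54.9 and 60.2 TPM at ZT8 and 47.3, 50.1 and 55.1 TPM at ZT20 (-0.07, interval -0.23 to 0.08), with all dark-phase libraries within the light-phase range.

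HNRNPC showed the largest difference of the 24 genes. It encodes a nuclear protein that binds uridine tracts in introns, where it competes with the splice site factor U2AF2. Its level was 63.4, 68.1 and 75.2 TPM (lowest, median and highest) at ZT8 and 91.6, 98.4 and 103 TPM at ZT20. The gap between the phases was wide compared with the spread within them, and HNRNPC was 42.5% higher in the dark phase (log2 fold change 0.51 ± 0.05 SE, FDR = 1.46e-05 by limma). HNRNPH2, which binds runs of guanine, had 64.8, 70.2 and 73.0 TPM at ZT8 and 74.6, 78.7 and 82.6 TPM at ZT20. Its phases did not overlap either, at a difference of 13.6% (log2 fold change 0.18 ± 0.04 SE, FDR = 0.00487 by limma). HNRNPA3, a close relative of HNRNPA1 and HNRNPA2B1, rose from 139, 154 and 164 TPM to 154, 182 and 192 TPM (log2 fold change 0.21 ± 0.06 SE, FDR = 0.0201 by limma). The lowest dark-phase library of HNRNPA3 lay within the light-phase range, so that the phases overlapped.

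The hnRNPs that were lower in the dark phase included well-known splicing repressors. HNRNPA1, which binds exonic and intronic silencers and opposes SR proteins, had 141, 152 and 158 TPM at ZT8 and 116, 126 and 134 TPM at ZT20, with no overlap, and its level fell by 16.3% (log2 fold change -0.26 ± 0.04 SE, FDR = 0.00107 by limma). HNRNPL, which binds CA-rich sequences, had 155, 160 and 177 TPM at ZT8 and 130, 137 and 146 TPM at ZT20 (log2 fold change -0.24 ± 0.04 SE, FDR = 0.00153 by limma). All light-phase libraries of HNRNPL were above all dark-phase libraries. PTBP1, which binds pyrimidine tracts and represses exons, had 91.8, 94.5 and 97.6 TPM at ZT8 and 80.4, 84.7 and 89.0 TPM at ZT20 (log2 fold change -0.16 ± 0.03 SE, FDR = 0.00458 by limma).

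HNRNPK, which binds cytosine-rich stretches, fell by 11.3%, and it varied so little between rats that the phases stood clearly apart. It had 225, 230 and 235 TPM at ZT8 (coefficient of variation 1.65%) and 197, 202 and 212 TPM at ZT20 (2.82%), a log2 fold change of -0.17 ± 0.03 (SE, FDR = 0.00136 by limma). HNRNPD, also known as AUF1, binds AU-rich elements and promotes the decay of mRNAs. Its level was 60.9, 68.6 and 74.8 TPM at ZT8 and 54.4, 58.3 and 63.0 TPM at ZT20, with overlapping phases (log2 fold change -0.20 ± 0.06 SE, FDR = 0.0270 by limma). This was the least secure of the 10 calls: without light-phase replicate 4, 5 or 6 or dark-phase replicate 3, 4 or 6 the FDR lay between 0.0536 and 0.0605. HNRNPA1, HNRNPA3 and HNRNPC have processed copies elsewhere in mammalian genomes, among which RSEM divides reads by estimate, so their levels carry that uncertainty.

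**Figure D3:**
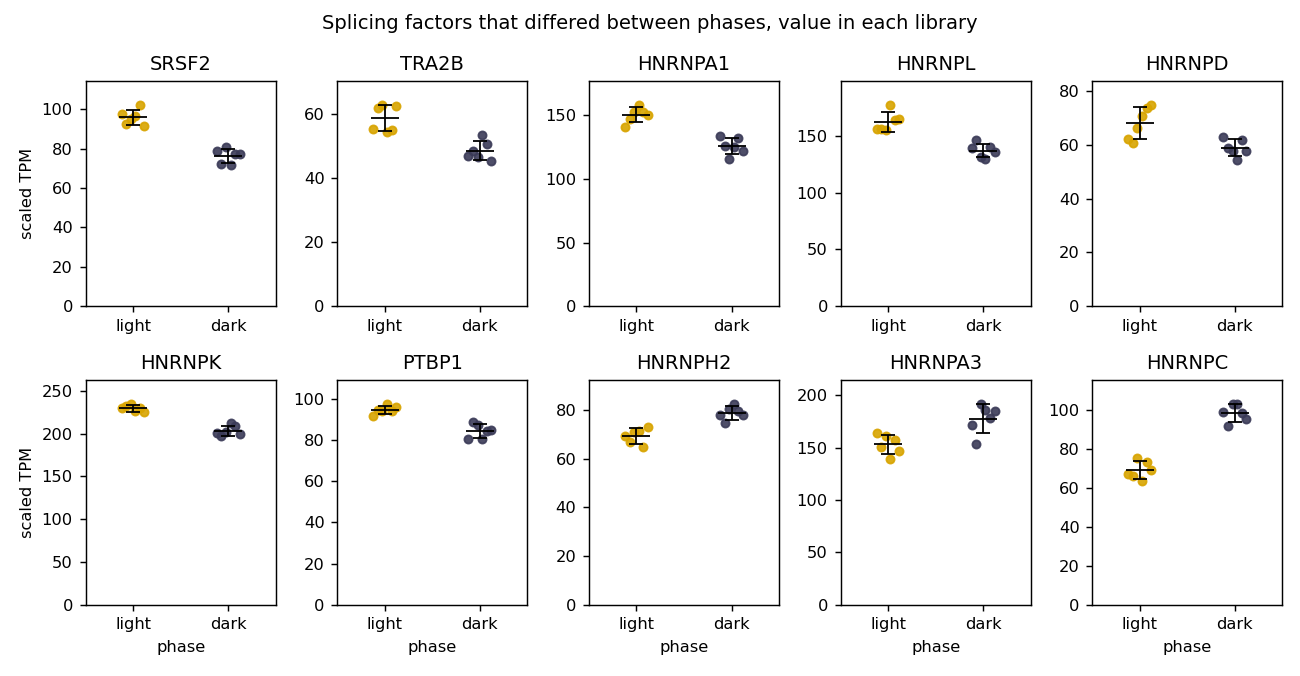
Scaled TPM (y axis, from 0) in each light-phase (yellow) and dark-phase (dark) library for the 10 splicing factors called by limma, with the mean and SD as black bars, n = 6 rats in each phase. In 8 of the panels the phases do not overlap, and in those of HNRNPD and HNRNPA3 they do.

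The remaining 5 hnRNPs were not called. HNRNPA2B1 had 292, 314 and 332 TPM at ZT8 and 299, 351 and 368 TPM at ZT20 (log2 fold change 0.13, 95% interval 0.02 to 0.24, limma FDR = 0.105). HNRNPM had 67.0, 67.8 and 75.7 TPM and then 71.2, 75.8 and 80.8 TPM (0.12, interval 0.03 to 0.22, limma FDR = 0.0719), and HNRNPH1 had a lowest value of 82.9 and a median of 96.3 TPM and then 80.3, 84.8 and 90.4 TPM (-0.15, interval -0.27 to -0.03, limma FDR = 0.0886). These 3 intervals lie to one side of 0 although the genes did not pass the adjusted threshold. HNRNPF, a relative of HNRNPH1, had medians of 128 and 125 TPM (-0.05, interval -0.11 to 0.02). HNRNPU, a scaffold protein of the nucleus, had medians of 101 and 103 TPM (0.00, interval -0.09 to 0.09).

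The factors that recognise the 3' splice site were not called. U2AF2, which binds the pyrimidine tract, had 53.1, 58.8 and 63.5 TPM at ZT8 and 55.2, 58 and 61.0 TPM at ZT20, with a log2 fold change of -0.01 (interval -0.10 to 0.09). SF3B1 and SF3B2, subunits of the U2 particle that holds the branch point, had log2 fold changes of -0.11 (interval from -0.22 to just under 0) and -0.07 (-0.15 to 0.02). NONO, a paraspeckle protein, had 0.03 (-0.08 to 0.14). The DEAD-box helicase DDX5 had 287, 309 and 323 TPM at ZT8 and 305, 342 and 361 TPM at ZT20 (0.13, interval 0.03 to 0.23, limma FDR = 0.0687). Its paralogue DDX17 had 100, 124 and 140 TPM and then 115, 140 and 155 TPM (0.17, interval -0.02 to 0.35, limma FDR = 0.213). Dark-phase replicate 2 was the lowest dark-phase library in 16 of the 29 splicing factors, and without it DDX5 (FDR = 0.0252) and HNRNPA2B1 (FDR = 0.0222) were called, which made 5 genes up-regulated in the dark phase in place of 3.

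The balance between pairs of related or partner proteins was compared as the ratio of their TPM within each library, which does not depend on the scaling. The quotient of FPKM and TPM described above was not taken into account in the ratios. The pairs were named with earlier results of these data known. In 4 of the 9 pairs tested the ratio did not overlap between the phases, beside 13.2% of all pairs of the 1997 genes described above. Some pairs share a gene, and several set a called gene against one that was not called. This count and the p-values of the pairs are therefore a description and no support of their own. The ratio of HNRNPA2B1 to HNRNPA1 was 1.94, 2.05 and 2.36 (lowest, median and highest) at ZT8 and 2.37, 2.82 and 3.07 at ZT20. HNRNPA3 was about as abundant as HNRNPA1 in the light phase, with ratios of 0.882, 1.02 and 1.16, and exceeded it in every dark-phase rat, with 1.22, 1.42 and 1.65. Within this family the mean balance thus moved by 0.39 and 0.47 on the log2 scale, away from HNRNPA1.

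The ratio of HNRNPH2 to HNRNPH1 was 0.666, 0.721 and 0.839 at ZT8 and 0.904, 0.918 and 0.964 at ZT20, a difference of 0.33 on the log2 scale. The dark-phase values were closely spaced (SD 0.03 on the log2 scale, against 0.14 in the light phase). The ratio of SRSF3 to SRSF2 was 0.574, 0.661 and 0.752 at ZT8 and 0.829, 0.844 and 0.923 at ZT20, a difference of 0.38. For each of these 4 pairs the two-sided exact permutation test gave p = 0.00216, the smallest that 6 libraries against 6 allow, and adjusted p = 0.00487 over the 9 pairs. The ratio of PTBP1 to U2AF2, which bind similar pyrimidine tracts, fell from 1.54, 1.62 and 1.78 to 1.35, 1.44 and 1.61, with overlapping phases (difference -0.16, exact permutation test p = 0.0108, adjusted p = 0.0195).

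The other 4 pairs did not pass the test. DDX17 to DDX5 had a median of 0.408 at ZT8 and 0.403 at ZT20 (difference 0.03 on the log2 scale, exact permutation test p = 0.703). SF3B2 to SF3B1 had medians of 0.841 and 0.868 (exact permutation test p = 0.506), and SRSF5 to SRSF3 had 1.71 and 1.74 (exact permutation test p = 0.695). HNRNPF to HNRNPH1 had 1.33 and 1.45 (difference 0.10, exact permutation test p = 0.139, adjusted p = 0.208). Without light-phase replicate 2, which held the highest light-phase ratio of 1.60, this difference was 0.15 with an adjusted p of 0.0273 (exact permutation test). A p above the threshold does not show that these ratios were equal.

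**Figure D4:**
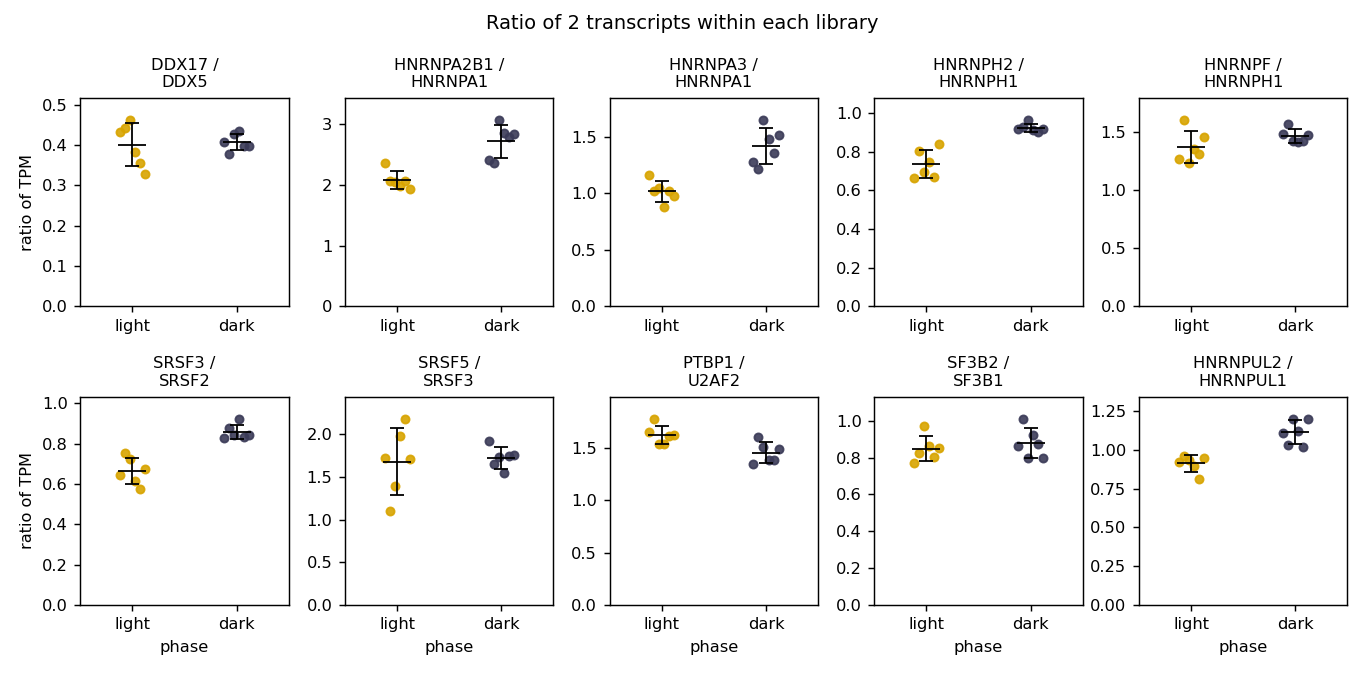
Ratio of the TPM of 2 transcripts (y axis, from 0) within each light-phase (yellow) and dark-phase (dark) library, with the mean and SD as black bars, n = 6 rats in each phase. The dark-phase points lie above all light-phase points for HNRNPA2B1 to HNRNPA1, HNRNPA3 to HNRNPA1, HNRNPH2 to HNRNPH1, SRSF3 to SRSF2 and HNRNPUL2 to HNRNPUL1, of which the last was not tested.

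The 5 splicing factors whose identifier came from the study's list of changed genes alone are described here without a test, and their direction is no evidence of its own. SON and SRRM2 are large proteins that build nuclear speckles, where splicing factors are stored. SON was 36.5, 38.6 and 40.5 TPM at ZT8 and 41.1, 42.4 and 46.8 TPM at ZT20, and SRRM2 was 30.4, 32.9 and 37.5 TPM and then 33.2, 39.7 and 43.4 TPM. SON was higher in every dark-phase rat, whereas the phases of SRRM2 overlapped. SRSF10, an SR protein that represses splicing when dephosphorylated, had 15.8, 17.2 and 19.4 TPM at ZT8 and 17.6, 21.1 and 24.7 TPM at ZT20. The paralogues HNRNPUL1 and HNRNPUL2 moved apart. HNRNPUL1 had 37.2, 37.9 and 39.9 TPM and then 32.5, 35.6 and 36.5 TPM, and HNRNPUL2 had 32.0, 34.9 and 37.3 TPM and then 37.3, 39.0 and 40.4 TPM, with 1 library of each phase in the range of the other. The ratio of HNRNPUL2 to HNRNPUL1 was 0.813 to 0.962 at ZT8 and 1.02 to 1.20 at ZT20, so that HNRNPUL1 was the more abundant of the pair in every light-phase rat and HNRNPUL2 in every dark-phase rat.

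Around these factors, 19 further splicing genes on lists of spliceosome proteins, splicing regulators and mRNA export proteins could be identified through their level. Limma called 1 of them, TARDBP, where 17.7% of all tested genes and 23.5% of the 1997 genes described above were called. Of 8 U1, U2 and common snRNP proteins limma called 0 (4 at an unadjusted p below 0.05), and of 3 proteins of U5, the tri-snRNP and the catalytic spliceosome 0 (1 at an unadjusted p below 0.05), beside 30.8% of all tested genes and 38.5% at that level with such a p. The lowest p among the snRNP proteins was that of SNRPD1, with a median of 68.3 TPM at ZT8 and 63.0 TPM at ZT20 (log2 fold change -0.14, limma FDR = 0.0923), followed by SNRPE (-0.19) and SF3B5 (-0.12). PRPF19, DHX15 and PRPF8, the 3 proteins measured from the list of U5, the tri-snRNP and the catalytic spliceosome, had -0.09, 0.03 and 0.01. DDX39B, a helicase for mRNA export, had -0.10 (interval -0.24 to 0.03), and for the kinases that phosphorylate SR proteins no identifier was at hand.

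Among the 7 other regulators of splicing that were measured, TARDBP was higher in the dark phase and 6 were not called. TARDBP encodes TDP-43, an RNA-binding protein that represses cryptic exons. Its level was 50.1, 51.6 and 58.7 TPM at ZT8 and 58, 69.2 and 73.2 TPM at ZT20 (log2 fold change 0.35 ± 0.06 SE, FDR = 0.00141 by limma), with overlapping phases. With the covariate described above it was not called (FDR = 0.145). PCBP2, a poly(C)-binding relative of HNRNPK, had a median of 114 TPM at ZT8 and 124 TPM at ZT20 (0.11, limma FDR = 0.12). RBM4, a regulator of exon choice, had medians of 69.9 and 64.8 TPM (-0.13, limma FDR = 0.176).

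The promoters of the splicing factors were searched for the letters of the E-box CACGTG and the D-box TTATGTAA, which clock proteins can bind, and of the heat shock element GAANNTTC. RefSeq promoter windows (build GRCr8) were matched by symbol for 26 of the 29 genes, and the 250 bases before the annotated start were read on both strands. CACGTG, which is its own reverse complement, was found in 4 of the 26, and in 5.59% of all 33469 promoters. These promoters were not restricted to genes at a comparable level. The 4 windows are shown for their position and surroundings. HNRNPH2, with 2 matches, had a log2 fold change of 0.18, HNRNPM of 0.12, SRSF3 of 0.05 and HNRNPD of -0.20, of which those of HNRNPH2 and HNRNPD were called. The heat shock letters GAANNTTC were found in 5 of the 26 and in 7.23% of all promoters, and all 5 windows are shown. Of these genes HNRNPC (0.51) and HNRNPL (-0.24) were called, and DDX17 (0.17), SRSF5 (0.12) and HNRNPF (-0.05) were not. The D-box TTATGTAA was found once, in SRSF10, and in 0.828% of all promoters. SRSF10 is among the genes whose identifier came from the study's list of changed genes alone, as are SON, HNRNPUL1 and HNRNPUL2 of the 26. The windows below are given 5′ to 3′ on the strand of the gene, with the matched letters in capitals.
HNRNPH2, E-box, chrX:102074145-102074237, plus strand: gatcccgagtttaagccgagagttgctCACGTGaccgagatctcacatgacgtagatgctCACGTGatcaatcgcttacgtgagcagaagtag
HNRNPD, E-box, chr14:9919682-9919741, plus strand: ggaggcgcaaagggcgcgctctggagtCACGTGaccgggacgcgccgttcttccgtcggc
SRSF3, E-box, chr20:7093489-7093548, plus strand: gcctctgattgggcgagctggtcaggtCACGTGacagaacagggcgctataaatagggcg
HNRNPM, E-box, chr7:15178884-15178943, minus strand: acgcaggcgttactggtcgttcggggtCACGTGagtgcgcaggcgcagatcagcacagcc
HNRNPC, heat shock letters, chr15:27282906-27282965, minus strand: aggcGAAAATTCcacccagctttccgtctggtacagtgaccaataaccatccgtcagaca
HNRNPL, heat shock letters, chr1:93228258-93228317, plus strand: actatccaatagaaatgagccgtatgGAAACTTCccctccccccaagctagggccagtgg
DDX17, heat shock letters, chr7:112975074-112975133, minus strand: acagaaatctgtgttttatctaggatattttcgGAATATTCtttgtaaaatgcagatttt
SRSF5, heat shock letters, chr6:106336630-106336689, plus strand: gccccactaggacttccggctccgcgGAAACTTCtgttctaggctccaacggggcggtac
HNRNPF, heat shock letters, chr4:152768486-152768545, plus strand: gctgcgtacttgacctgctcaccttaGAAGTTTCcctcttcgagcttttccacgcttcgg
A match describes the letters in this window and not a bound site, and the annotated start need not be the one used in choroid plexus. The expression data were mapped to another build, Rnor_6.0, so these positions apply to GRCr8 alone.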

How the data were processed

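RNA from choroid plexus of 12 rats was measured, 6 in each phase. Per the methods of the study, the authors mapped reads to Rnor_6.0 (Ensembl release 104) with STAR 2.7.9a and quantified genes with RSEM 1.3.3, and the deposited files hold TPM per gene and library. The deposited FPKM values come from the same RSEM output and served only for relative depth (249 genes of low level) and for the ratio of totals. The authors tested STAR gene counts, while the files used here hold TPM and FPKM, so limma on log2 values replaced a count test.

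TPM was divided by a trimmed mean of ratios (30% of ratios and 5% of levels trimmed at each end), 0.5 TPM was added, and the log2 of genes averaging 1 TPM or more was fitted with phase alone, moderated variances and a trend (R 4.3.3, limma 3.58.1). P-values were adjusted by Benjamini-Hochberg over all tested genes at an FDR of 0.05. The added 0.5 TPM slightly understates changes. The procedure was tested on simulated data. Ratios were tested with exact permutation over 924 assignments (Python 3.11.15, numpy 2.4.6). Identifiers came only from the study's tables, of which part was used here. Every member with an identifier is named, those called or most abundant with values, and the 3 smallest p of each further list. The RefSeq table used here does not pair identifiers with the files. Some genes of the further lists and markers are not reported here and were left out of the counts of their lists. Members, pairs, lists and markers were chosen with earlier results of these data known. The replicate numbers did not pair the libraries. No 2 libraries were identical (0 pairs), with correlations between 0.958 and 0.983. Alternatives were other scalings, added values, filters, variance models, weights, a replicate block, the FPKM to TPM covariate and leaving out each library.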

Additional observations from a re-analysis of the deposited data

Results flagged for a closer look

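Values were marked when their gap to the nearest of the other libraries of the phase exceeded the critical share of the range of the 6 libraries given by Dixon's test. In 78 groups examined 3 values were marked, where chance gives about 3.9. SF3B2 was 57.9 TPM in light-phase replicate 3, with the next at 51.8 TPM and the lowest at 50 TPM. HNRNPF was 118 TPM in dark-phase replicate 3, with the next at 125 and the highest at 127 TPM. The ratio of HNRNPA2B1 to HNRNPA1 was 2.36 in light-phase replicate 1, with the next at 2.07, and it was still below the lowest dark-phase ratio of 2.37.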

How the results depend on the processing

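Of the 10 calls among the 24 splicing factors, 9 held under all alternatives other than the FPKM to TPM covariate, HNRNPD being the exception, and of the 14 genes not called 4 gained a call under at least 1 alternative (DDX5, HNRNPA2B1, HNRNPH1 and HNRNPM). No called value changed sign under any of the 24 alternatives. With the covariate the calls were 1 splicing factor up and 1 down at ZT20, 342 genes were called in all, and of the 19 further splicing genes 0 were called higher. The covariate moved with the phase. Of the 8 lost calls TRA2B (-0.26), PTBP1 (-0.15), HNRNPK (-0.17) and HNRNPH2 (0.21) kept about the same log2 fold change, and the cause was not tested. With quantile normalisation 2 of the further genes were called higher, beside 1262 of all tested genes. With each library left out in turn, 3 to 5 splicing factors were called higher and 6 to 8 lower. Over all tested genes 904 to 1179 were then called higher and 798 to 1095 lower, against 1164 and 1047 in the main fit. Of the further genes 1 to 2 were called higher and 0 to 1 lower (SNRPD1, without light-phase replicate 1). The difference of the ratio of HNRNPF to HNRNPH1 lay between 0.07 and 0.15. Same-numbered libraries of both phases did not deviate together (correlations of -0.107 to 0.047, and 0 libraries correlated best with their own number). With the replicate number as a block, 3 splicing factors were called higher and 6 lower, with HNRNPD at an FDR of 0.0638 by limma. Over all tested genes 831 were called higher and 757 lower with the block. In the paired permutation of the ratios the differences were as before, 0.39 for HNRNPA2B1 to HNRNPA1, 0.47 for HNRNPA3 to HNRNPA1, 0.33 for HNRNPH2 to HNRNPH1, 0.38 for SRSF3 to SRSF2 and -0.16 for PTBP1 to U2AF2, and the adjusted p was 0.0563 for all 5, the smallest that sign flips of 6 pairs can give here. Absolute depth is not known, and values summed over a gene do not show isoforms.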

Other observations

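The libraries differed in how often they held the extreme value of their phase. Dark-phase replicate 2 was lowest of its phase in 16 of the 29 splicing factors and highest in 4. Light-phase replicate 3 was highest in 11 and lowest in 3. These counts cover the splicing factors alone. Between rats of one phase the 24 splicing factors varied somewhat less than the genes at their level. Their median coefficient of variation was 5.30% at ZT8 and 4.92% at ZT20, against 6.75% and 5.53% over the 1997 genes.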
